A study of Macaca mulatta with 8 samples.

Results

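The genes described here encode ion channels and neurotransmitter receptors. They were chosen from the mRNA table by symbol alone: every symbol that begins with KCN, SCN and a digit, CACN, HCN and a digit, CLCN, TRPC, TRPM, TRPV, GRIA, GRIK, GRIN, GRID, GRM and a digit, GABR, GLR, CHRN or CHRM was taken, with the row of highest mean where a symbol has more than 1. This gave 57 of the 12460 symbols of the table. By product, 53 of them are channels, receptors or their subunits: 22 potassium channel genes, 3 sodium, 5 calcium and 5 chloride channel genes, 2 TRP channels, 8 glutamate receptor genes, 4 GABA-A receptor subunits, 1 glycine receptor subunit and 3 nicotinic receptor subunits. The other 4 share only the letters of their symbols, namely the glutaredoxins GLRX, GLRX3 and GLRX5, which are thiol redox enzymes, and TRPC4AP, a protein named for its association with a TRP channel. No symbol of the table begins with HCN and a digit, TRPV, GRIN or CHRM, so pacemaker channels, TRPV channels, NMDA receptor subunits and muscarinic receptors were not analysed here under their own symbols.

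Poly-A mRNA of wild type rhesus monkey cells of the ESC line IVF3.2 was sequenced at 4 stages of neural differentiation. ESCs lay on inactivated feeders of mouse embryonic fibroblasts, and the share of feeder RNA in their values was not tested. The later stages were derived from them through embryoid bodies and grew on polyornithine and laminin. R-NSCP1 were rosettes of passage 1, picked by hand, in N2 medium with SHH (200 ng/mL), FGF8 (100 ng/mL), BDNF (20 ng/mL) and ascorbic acid. R-NSCP6 were all cells of the dish at passage 6, when rosettes had been lost, after culture with SHH (500 ng/mL), Dll4 (500 ng/mL), Jagged-1 (500 ng/mL), BDNF (20 ng/mL) and ascorbic acid. NPCs had been kept with FGF2 (20 ng/mL), EGF (20 ng/mL), BDNF (20 ng/mL) and ascorbic acid for more than 100 days. Each stage was 1 library made from a pool of many repeats, so the differences below have no replicate check, no test was made, and stage, medium and way of collection cannot be told apart. Fewer cells of a type and less RNA per cell cannot be told apart either in such bulk samples.

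Values are FPKM, fragments per kilobase of exon scaled to mapped depth, as deposited. Where 4 values stand in a row, they are those of ESC, R-NSCP1, R-NSCP6 and NPC in that order. The number of fragments behind a value is unknown, so no counting interval is given and a value listed at 0 has no known limit of detection. FPKM summed over all rows ran from 491243 in R-NSCP1 to 999473 in ESC. A gene was called expressed with an FPKM of at least 3, and prevalent in a stage where it had an FPKM of at least 3 and at least 2 times that of the second highest stage. Folds are plain ratios of FPKM, and log2 ratios use FPKM + 1. Of marker lists of cell types, all 5 pluripotency genes were prevalent in ESC, and 4 of 5 astroglial genes with a row were prevalent in NPC.

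Ion channels open a path for potassium, sodium, calcium or chloride through the membrane and set its voltage. Voltage-gated sodium and calcium channels carry the rising phase of electrical signals and calcium entry, while potassium channels return the membrane to rest. Receptors for glutamate, GABA, glycine and acetylcholine turn a released transmitter into a current or a second messenger. Many of these genes are used by dividing progenitors and glia as well as by neurons.

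Most channel and receptor genes were weakly expressed, and few were expressed throughout. The highest FPKM of a symbol over the stages had a median of 6.71 among the 57, against 18.3 among all symbols, and 18 of the 57 reached 10 FPKM, which 71% of all symbols did. Since almost every row of the table reaches 3 FPKM in some stage, each member is listed because of its highest stage, and the lowest of these values was 3.12 for CHRNA4. Of the 57, 20 were expressed in ESC, against 78.4% of all symbols. The numbers were 38 in R-NSCP1 (all symbols, 85.5%), 34 in R-NSCP6 (all symbols, 83.6%) and 29 in NPC (all symbols, 83.2%). Only 9 were expressed in all 4 stages, a state found in 65.5% of all symbols. These 9 were CACNB3, CLCN6, CLCN7, GABRA5, GRIA1, TRPC1, GLRX3, GLRX5 and TRPC4AP.

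The stage of highest level was ESC for 11 of the 57 (all symbols, 32.5%), R-NSCP1 for 13 (all symbols, 16.8%), R-NSCP6 for 17 (all symbols, 29.9%) and NPC for 16 (all symbols, 20.8%). For 20 members this was the only stage with expression, against 13% of all symbols.

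More than 1 in 2 members were prevalent in some stage. This held for 32 of 57 (56.1%), against 25.4% of all symbols, and for 20 of the 39 members whose highest value was under 10 FPKM, against 26.6% of all symbols under that level. At 10 FPKM or more it held for 12 of 18, against 24.9% of all symbols there. ESC had 10 prevalent members (all symbols, 9.21%), R-NSCP1 had 7 (all symbols, 2.04%), R-NSCP6 had 6 (all symbols, 7.58%) and NPC had 9 (all symbols, 6.55%). Of the 32, 24 kept their stage when FPKM was rescaled by its upper quartile, by the median of ratios or by the library sum. The other 8 were CHRNA5, GABRA5, KCNG3, KCNK5 and GLRX3 of ESC, CACNA1A of R-NSCP1, and KCNA6 and KCNJ11 of R-NSCP6. With FPKM divided by the library sum, 5 members were prevalent in ESC and 11 in R-NSCP1, when 3.19% and 5.39% of all symbols were. A fold of at least 4 was reached by 5 of the members prevalent in ESC (all symbols, 3.27%), 1 in R-NSCP1 (all symbols, 0.674%), 1 in R-NSCP6 (all symbols, 1.81%) and 5 in NPC (all symbols, 2.73%).

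**Figure D1:**
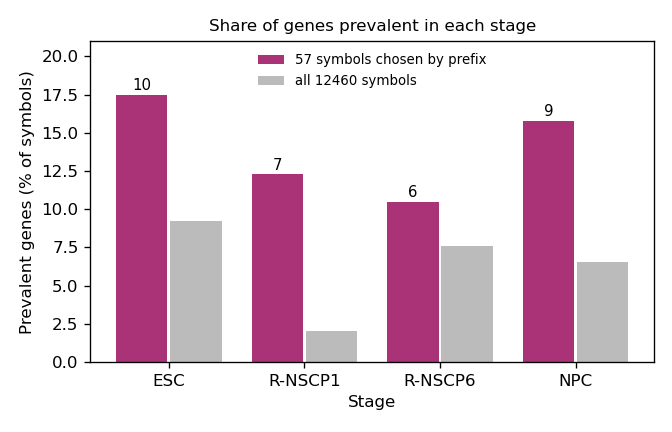
Percentage of symbols prevalent in each stage, for the 57 symbols chosen by prefix (purple bars, with their number above) and for all 12460 symbols (grey bars). The member share is above that of all symbols in each stage, with the nearest shares in R-NSCP6, 10.5% and 7.58%.

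**Figure D2:**
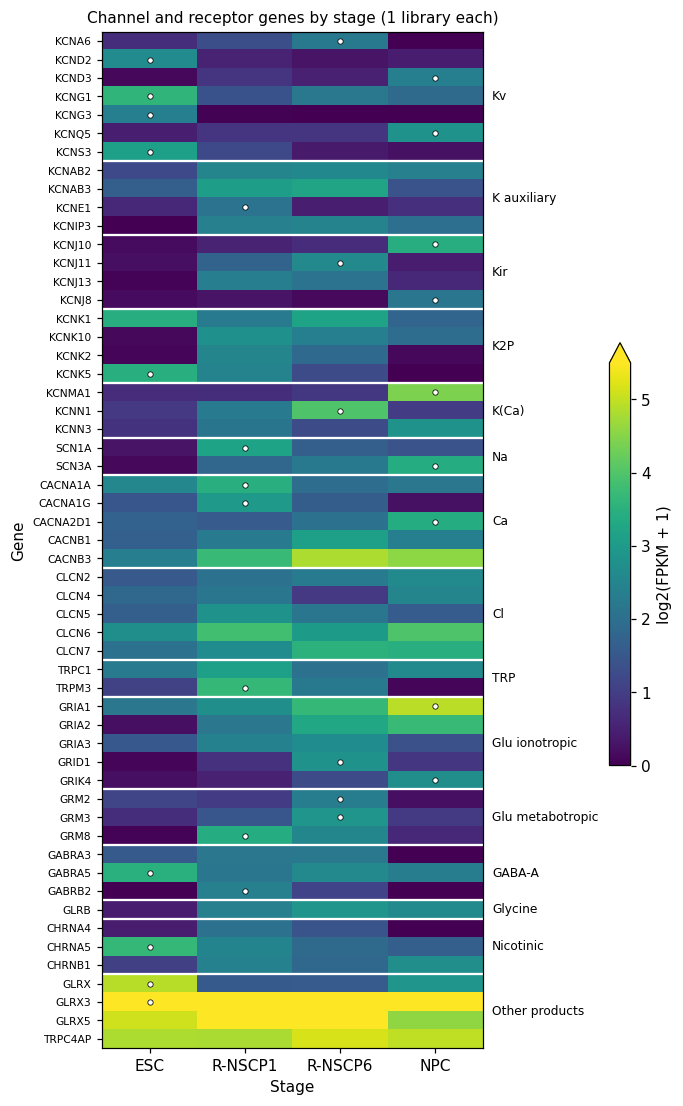
Level of the symbols chosen by prefix, with 2 not shown, as log2(FPKM + 1), in the 4 stages of 1 library each, grouped by class of product. White dots mark the stage in which a gene was prevalent, and the colour scale ends at 5.5, which only glutaredoxins exceed.

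Among the voltage-gated potassium channel genes, 4 of 7 were prevalent in ESC, and these differed from the ones prevalent in NPC. Their FPKM summed to 29.3, 6.46, 8.99 and 13.5. KCNG1, KCNG3 and KCNS3 encode modulatory subunits that give no current alone and join subunits of the Kv2 family, and all 3 had their highest level in ESC. KCNG1 was at 11.1, 1.60, 3.57 and 2.71 FPKM from ESC to NPC. KCNS3 was at 7.64 FPKM in ESC, then at 1.31, 0.315 and 0.190 along the series. KCNG3 was at 4.16 FPKM in ESC, at 0.0162 and 0.0080 in the R-NSC stages, and listed at 0 in NPC. KCNG3 was thus 257-fold higher in ESC than in its second stage, from a level near the limit of 3 FPKM, and was no longer called with FPKM divided by the library sum.

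The Shal genes KCND2 and KCND3, which carry fast transient potassium currents, were high at opposite ends of the series. KCND2 was at 5.28 FPKM in ESC and at 0.441, 0.217 and 0.358 in R-NSCP1, R-NSCP6 and NPC, which is 11.97-fold above the second stage. KCND3 was at 0.0782, 0.783, 0.422 and 4.15 FPKM from ESC to NPC, 5.30-fold above the second stage. Of the summed FPKM of both genes, KCND3 made up 1.46%, 64.0%, 66.1% and 92.1%.

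KCNQ5, a gene of the M-type current that damps repeated firing, was also prevalent in NPC, with 0.371, 0.799, 0.807 and 6.09 FPKM from ESC to NPC (7.54-fold). KCNA6, a Shaker-type channel gene, had its highest level in R-NSCP6 (3.65 FPKM) and was at 0.0081 FPKM in NPC. Its ratio of R-NSCP6 to R-NSCP1 was 2.42, and the call was lost with FPKM divided by the library sum.

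Of the 4 auxiliary potassium channel genes, 3 were at least 2-fold above ESC in both R-NSC stages. KCNAB2 and KCNAB3 encode cytoplasmic beta subunits, and KCNIP3 encodes a calcium sensor that binds Shal channels. KCNAB3 was at 2.19, 7.51, 8.31 and 1.63 FPKM from ESC to NPC. KCNAB2 was at 1.30 FPKM in ESC and between 4.30 and 4.93 in the other stages, and KCNIP3 was listed at 0 in ESC with 3.02 to 4.50 FPKM in the others. KCNE1, a small membrane subunit best known from the heart and inner ear, was prevalent in R-NSCP1, with 0.529, 3.27, 0.373 and 0.693 FPKM (4.71-fold).

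Inward rectifiers hold the membrane near rest, and the 4 listed ones had 3 different stages of highest level. KCNJ10, the main inward rectifier of astrocytes, was at 0.114, 0.448, 0.621 and 9.68 FPKM from ESC to NPC, 15.6-fold above the second stage. KCNJ8, a pore subunit of ATP-sensitive channels, was at 0.121, 0.218 and 0.0942 FPKM in the first 3 stages and at 3.49 in NPC (16.02-fold). Both stood in the stage where the 5 astroglial markers with a row, of 7 in the list, summed to 1497 FPKM, against 144 to 613 elsewhere, with none of them listed at 0. GJA1 made up most of that sum in the 3 earlier stages, and GFAP had 483 FPKM in NPC and no more than 2.06 in another stage. The part of astroglial cells in the KCNJ10 and KCNJ8 values was not tested. KCNJ8 is also known from pericytes, for which no marker list was used. All 5 genes of the mesenchyme list had a row and summed to 21.2, 36.9, 5.21 and 6.06 FPKM from ESC to NPC. The part of pericytes or mesenchyme in the KCNJ8 values was not tested.

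KCNJ11, the other pore subunit of ATP-sensitive channels, was at 0.162, 2.36, 5.02 and 0.335 FPKM and so highest in R-NSCP6. Its ratio to R-NSCP1 of 2.13 passed the 2-fold limit as deposited but not with upper-quartile or library-sum scaling. KCNJ13, known from retinal pigment epithelium and choroid plexus, was at 0.0305, 4.12, 3.29 and 0.536 FPKM, with both R-NSC stages above both ends of the series. TRPM3, a cation channel for which choroid plexus is a known site, was at 1.14, 11.6, 3.68 and 0.0710 FPKM from ESC to NPC (3.15-fold). The same order was seen for the choroid plexus markers with a row, TTR and CLIC6, 2 of 5 in the list. TTR had 463 FPKM at passage 1 and 154 at passage 6, with the other stages listed at 0. CLIC6 had 23.1 FPKM at passage 1 and 17.0 at passage 6, with 0.0176 for ESC and NPC listed at 0. Their part in the KCNJ13 and TRPM3 values was not tested.

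The 2-pore potassium channel genes, which give background currents, fell into a pair with high levels in ESC and a pair that was nearly absent there. KCNK5 was at 10.1, 4.47 and 1.38 FPKM in the first 3 stages, with NPC listed at 0. It was prevalent in ESC (2.25-fold), though not with FPKM divided by the library sum. KCNK1 was at 9.69, 3.71, 8.18 and 2.46 FPKM, so that ESC and R-NSCP6 differed by 1.19-fold only. KCNK2 and KCNK10 encode the mechanically gated TREK channels. KCNK2 was at 0.0559, 4.63, 2.66 and 0.0776 FPKM from ESC to NPC, and KCNK10 was at 0.0865, 5.77, 4.21 and 2.90 FPKM. Both TREK genes were therefore highest in R-NSCP1, though neither was 2 times its level in R-NSCP6 (1.74-fold and 1.37-fold).

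The calcium-activated channel genes KCNMA1 and KCNN1 reached the highest levels of the 22 potassium channel genes. KCNMA1, the BK channel of large conductance, was at 0.614, 0.655, 0.861 and 20.5 FPKM from ESC to NPC. It was 23.8-fold higher in NPC than in R-NSCP6, the largest fold among the members prevalent in NPC. KCNN1, an SK channel of small conductance that opens on calcium entry and slows firing, was instead prevalent in R-NSCP6. KCNN1 was at 0.888, 3.82, 14.7 and 0.980 FPKM. KCNN3 was at 0.743, 3.43, 1.39 and 6.07 FPKM, with its highest level in NPC. A separate row under the symbol SK3, described in the table as a small-conductance calcium-activated channel, was listed at 0 in ESC and then at 2.84, 3.17 and 14.1 FPKM. SK3 is another name of the KCNN3 product, so fragments of 1 gene may be split between these rows and the KCNN3 values are uncertain.

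The sodium channel alpha subunits SCN1A and SCN3A, which form the pore for the sodium current of action potentials, had different peak stages. SCN1A was at 0.227, 8.09, 2.16 and 1.64 FPKM from ESC to NPC and was prevalent in R-NSCP1 (3.75-fold). SCN3A, the main form of the embryonic brain, was at 0.0888, 2.51, 3.64 and 9.54 FPKM from ESC to NPC, where it was prevalent (2.62-fold). Of the summed FPKM of both, SCN3A made up 28.1%, 23.7%, 62.8% and 85.3%.

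**Figure D3:**
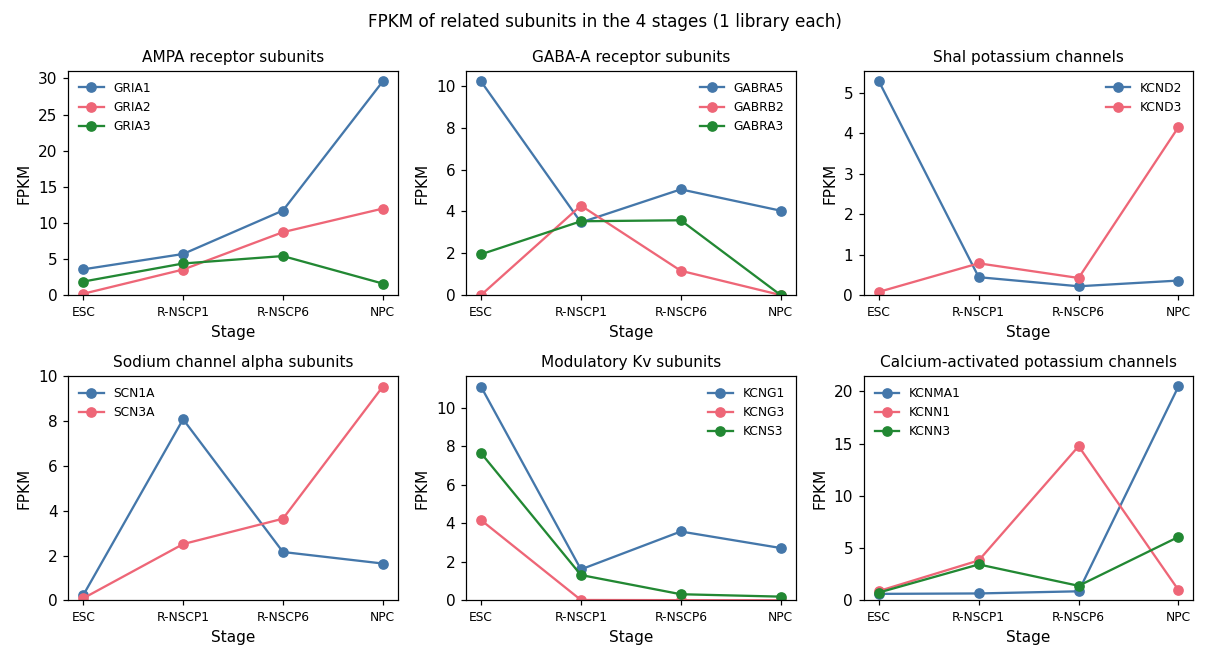
FPKM on linear axes from 0 for 6 groups of related subunits in the 4 stages, with 1 point per library and lines that only join the points. KCND2 and KCND3, and SCN1A and SCN3A, exchange order along the series, the 3 modulatory Kv subunits are highest in ESC, and GRIA1 reaches 29.6 FPKM in NPC.

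The summed level of the 5 calcium channel genes was higher after ESC, at 15.3, 35.0, 43.1 and 40.2 FPKM from ESC to NPC. The pore subunits CACNA1A, of the P/Q-type channels that trigger transmitter release, and CACNA1G, of low-threshold T-type channels, were both prevalent in R-NSCP1. CACNA1A was at 4.85, 10.1, 2.93 and 3.56 FPKM, and its ratio to the second stage of 2.07 was no longer above 2 with median-of-ratios scaling. CACNA1G was at 1.79, 6.71, 2.10 and 0.185 FPKM in the same order (3.20-fold). The auxiliary subunits peaked later. CACNB3, a cytoplasmic beta subunit, was the member of highest level in both R-NSCP6 and, after GRIA1, NPC among channels and receptors, with 4.09, 12.3, 27.3 and 22.7 FPKM. CACNB1 was at 7.61 FPKM in R-NSCP6 and 2.24 to 4.22 elsewhere, and CACNA2D1, which carries channels to the surface, was at 9.58 FPKM in NPC and 1.98 to 3.15 elsewhere (3.04-fold).

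None of the 5 chloride channel genes was prevalent in a stage. The highest FPKM was 1.07 to 1.73 times the second highest for the 5. CLCN6 and CLCN7 encode exchangers of late endosomes and lysosomes. CLCN6 was at 5.64, 13.3, 6.95 and 14.8 FPKM from ESC to NPC, and CLCN7 was at 3.20, 5.35, 10.7 and 9.98 FPKM. CLCN2, a plasma membrane channel, was at 1.92 to 5.23 FPKM, and the endosomal CLCN4 and CLCN5 were at 0.884 to 4.66 and 2.05 to 6.04 FPKM. Among the TRP channels, TRPC1 was likewise present in all stages, with 3.72, 7.54, 3.19 and 5.15 FPKM.

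The summed level of the 5 ionotropic glutamate receptor genes was higher at each later stage, at 5.82, 14.7, 33.2 and 49.6 FPKM from ESC to NPC. Genes of AMPA receptors, which carry fast excitation, made up most of the sum of these 5. GRIK5, a kainate receptor subunit listed under a LOC symbol, is not in that sum. It was at 8.43, 19.2, 46.0 and 26.7 FPKM, above GRIA1 in each stage but NPC. GRIA1 was at 3.56, 5.69, 11.7 and 29.6 FPKM from ESC to NPC, where it was prevalent (2.53-fold). GRIA2, the subunit that in its edited form blocks calcium entry through the receptor, was at 0.177, 3.53, 8.71 and 11.98 FPKM. GRIA3 was at 1.87, 4.37, 5.40 and 1.59 FPKM and so was lower in NPC than in either R-NSC stage. Of the summed FPKM of GRIA1 to GRIA3, GRIA2 made up 3.16%, 26.0%, 33.7% and 27.8%.

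Beside AMPA receptors, GRIK4, a kainate receptor subunit, was prevalent in NPC and GRID1 in R-NSCP6. GRIK4 was at 0.163, 0.420, 1.41 and 5.57 FPKM from ESC to NPC (3.96-fold). GRID1, the delta receptor that binds cerebellins and organizes synapses, was at 0.0562, 0.734, 5.96 and 0.827 FPKM, 7.21-fold above the second stage.

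The metabotropic glutamate receptor genes, which act through G proteins, were all prevalent in an R-NSC stage and low at both ends of the series. GRM8 was at 0.0326, 9.67, 4.73 and 0.523 FPKM from ESC to NPC, and with a ratio of 2.04 to R-NSCP6 it lay close to the limit. GRM2 and GRM3, which form the same receptor group and reduce transmitter release, were prevalent in R-NSCP6. GRM2 reached 4.06 FPKM there and at 0.171 to 1.21 elsewhere (3.36-fold), and GRM3 was at 6.32 FPKM there and at 0.638 to 1.79 elsewhere (3.52-fold).

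R-NSCP6 was also the stage with the highest levels of glutamatergic neuron markers. The 5 such genes with a row, of 6 in the list, summed to 21.6, 18.5, 132 and 0.448 FPKM, and NEUROD6 was listed at 0 in ESC. EOMES alone had 21.3 FPKM of the ESC sum, and each of the others was at most 0.166 FPKM in ESC. The part of glutamatergic neurons in the levels of KCNN1, GRID1, GRM2, GRM3, KCNJ11 and KCNA6 was not tested. The sum of general neuron markers had another order: 11 of 12 had a row and summed to 52.8, 239.8, 547 and 640 FPKM, none of them at 0. GAP43 (317 FPKM) and STMN2 (179 FPKM) made up most of the NPC sum. By gene, 5 of the 11 were highest in R-NSCP6, 3 in NPC, 2 in R-NSCP1 and 1 in ESC. ELAVL4, for example, was at 31.0 FPKM in R-NSCP6 and 0.765 in NPC.

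GABA-A receptors carry fast inhibition in mature neurons, and GABRA5, an alpha subunit gene, was prevalent in ESC. GABRA5 was at 10.2, 3.48, 5.06 and 4.04 FPKM from ESC to NPC, and its ratio of 2.02 fell under the limit with FPKM divided by the library sum. In the rhesus gene table of the T2T-MMU8v2.0 assembly no protein-coding gene lies between GABRA5 and GABRG3, a gamma subunit gene. GABRG3, listed in these data as LOC720390, had another order, with 0.0913, 2.74, 2.96 and 3.10 FPKM.

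GABRB2, a beta subunit gene, and GABRA3 were at most 4.28 FPKM. GABRB2 was prevalent in R-NSCP1 with 4.28 FPKM, against 1.16 at passage 6, and both other stages were listed at 0. GABRA3 was at 1.95, 3.53 and 3.58 FPKM in the first 3 stages, with NPC listed at 0. GLRB, the beta subunit that anchors glycine receptors, was at 0.343, 4.28, 6.27 and 5.22 FPKM from ESC to NPC. GLRB and GRIA2 are also neighbours with no protein-coding gene between them in that table. With FPKM as deposited, GLRB was highest in R-NSCP6, by 1.20-fold over NPC, and GRIA2 was highest in NPC. The lowest level was in ESC for both. A rise from ESC to R-NSCP1 was seen in 42 of the 57 members (all symbols, 52.6%), so such a rise is not particular to this pair. Shared regulation of the pair was not tested.

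Of the nicotinic acetylcholine receptor subunits, CHRNA5, an accessory subunit, was prevalent in ESC. Its levels were 11.6, 4.55, 2.73 and 2.15 FPKM from ESC to NPC, and the call was lost with FPKM divided by the library sum. CHRNA4, a principal subunit of brain nicotinic receptors, was at 0.329, 3.12, 1.69 and 0.0126 FPKM, so its level in R-NSCP1 was 1.85-fold that in R-NSCP6. CHRNB1, best known as a subunit of the muscle receptor, was at 1.05, 4.36, 2.61 and 5.53 FPKM. The skeletal muscle markers with a row, ACTA1 and DES, 2 of 5 in the list, summed to 30.3, 0.647, 0.420 and 0.517 FPKM from ESC to NPC. The part of muscle cells in the CHRNB1 values was not tested.

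Of the 4 symbols with other products, 3 were above 20 FPKM in every stage, which no channel or receptor gene was. GLRX3 was at 179, 74.1, 77.5 and 52.8 FPKM from ESC to NPC and was prevalent in ESC (2.31-fold). GLRX5 was at 33.4, 44.4, 56.7 and 23.2 FPKM in the same order, and TRPC4AP stayed between 27.0 and 34.8 FPKM. GLRX has 2 rows, with 29.0 and 1.93 FPKM in ESC and identical values of 1.93, 1.99 and 6.30 FPKM in the 3 later stages. GLRX is thus prevalent in ESC by the first row, while by the second it would be highest in NPC. Leaving out these 4 symbols gave 8 prevalent members in ESC and changed none of the other stages.

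From ESC to R-NSCP1, 24 of the 57 were at least 2-fold higher (all symbols, 18.1%) and 12 were at least 2-fold lower (all symbols, 13.7%). The median log2 ratio was 0.71 over the members and 0.05 over all symbols, and 42 members were higher in R-NSCP1 (all symbols, 52.6%). Members with at least 10 FPKM in R-NSCP1 that were higher there were TRPM3 (10.2-fold), CACNB3 (3.004-fold), CLCN6 (2.35-fold) and CACNA1A (2.07-fold). Those with at least 10 FPKM in ESC and lower levels in R-NSCP1 included GLRX (15.0-fold), KCNG1 (6.91-fold), GABRA5 (2.94-fold) and CHRNA5 (2.55-fold). The GLRX fold is from its row of higher mean, and by its other row both stages were at 1.93 FPKM. In log2 ratio of FPKM + 1, GRM8 had the largest increase, 3.37, followed by SCN1A, 2.89. With FPKM divided by the library sum, the median log2 ratio of all symbols was itself 0.94, and that of the members was 1.38.

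In the step from R-NSCP1 to R-NSCP6, as many members were higher as lower with FPKM as deposited, though not with every scaling. At least 2-fold higher were 11 members (all symbols, 15%) and at least 2-fold lower were 11 as well (all symbols, 13.2%). The median log2 ratio was 0.06, against 0.00 over all symbols, and it was -0.057 with upper-quartile and -0.31 with library-sum scaling. KCNN1 (3.87-fold), CACNB3 (2.22-fold) and GRIA1 (2.06-fold) were higher and had at least 10 FPKM in R-NSCP6. CACNA1A (3.43-fold) and TRPM3 (3.15-fold) were lower from at least 10 FPKM. With upper-quartile scaling 6 members were at least 2-fold higher (all symbols, 11.7%) and 13 lower (all symbols, 16.3%). With library-sum scaling 4 were higher (all symbols, 5.46%) and 18 lower (all symbols, 33.4%).

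From R-NSCP6 to NPC, 15 members were at least 2-fold higher (all symbols, 15.1%) and 15 at least 2-fold lower (all symbols, 20%). The median log2 ratio was -0.26, against -0.17 over all symbols, and 0.18 with FPKM divided by the library sum. KCNMA1 (23.8-fold), GRIA1 (2.53-fold) and CLCN6 (2.13-fold) were higher with at least 10 FPKM in NPC. KCNN1 (15.0-fold) and GLRX5 (2.45-fold) were lower from at least 10 FPKM. GLRB and GABRA5 were lower in NPC by only 1.20-fold and 1.25-fold, and GABRA3 and GABRB2 were listed at 0 there. The direction of GLRB and GABRA5 turned with FPKM divided by the library sum.

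**Figure D4:**
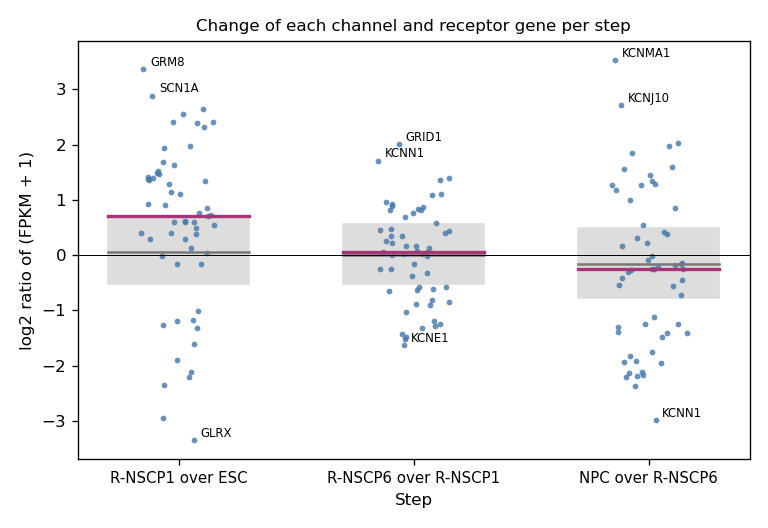
Log2 ratio of FPKM + 1 of each of the 57 symbols (blue points, spread sideways at random) in the 3 steps, with the member median (purple line) and the median and middle 50% of all symbols (grey line and box). The member median is at 0.71 in the first step, 0.06 in the second and -0.26 in the third, and some points of each step lie far outside the box on both sides. GLRX is shown by its row of higher mean only.

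A further 17 rows, listed under LOC symbols, carry a name of the same prefixes in the rhesus gene table, which holds 245 protein-coding symbols of this kind. They were left out of the 57 and of the counts above. Of these rows, 7 were highest in NPC (all symbols, 20.8%), 6 in R-NSCP6 (all symbols, 29.9%), 3 in R-NSCP1 (all symbols, 16.8%) and 1 in ESC (all symbols, 32.5%). In all, 8 were prevalent in a stage (all symbols, 25.4%), none of them in ESC. The 17 include GLRX2, a glutaredoxin highest in ESC, and KCNRG, highest in R-NSCP1. Both were classed as other products, and neither was prevalent. GRIK5 (LOC706629), a kainate receptor subunit, was at 8.43, 19.2, 46.0 and 26.7 FPKM from ESC to NPC. CACNG7 (LOC720271), which belongs to the proteins that accompany AMPA receptors, was at 18.8, 26.5, 39.1 and 50.7 FPKM. GRIK1 (LOC705699) was at 0.0197 FPKM in ESC and 12.3 in NPC (2.52-fold over R-NSCP6), and GRIK3 (LOC713545) had 5.95 FPKM in NPC and no more than 0.971 in another stage. The Shal partners KCNIP4 (LOC715577) and KCNIP1 (LOC706021) differed in stage, with 0.245, 7.60, 1.34 and 0.507 FPKM for KCNIP4 and 0.284, 1.09, 3.01 and 9.79 FPKM for KCNIP1. The GABA-A gamma subunit gene GABRG1 (LOC703792) was prevalent in R-NSCP6 at 7.74 FPKM.

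A fixed list of 74 partner genes outside the prefixes held receptor scaffolds and anchors, other channels and receptors, sodium pump genes, and REST and RCOR1. Of these genes, 51 had a row. Of the 51, none was prevalent in ESC, 2 were prevalent at passage 1, 6 at passage 6 and 12 in NPC. The shares of all symbols were 9.21%, 2.04%, 7.58% and 6.55% in that order. The 12 were 5 scaffolds or anchors, 5 other channels and receptors and 2 sodium pump genes. The GABA-B receptor needs both of its subunits, and GABBR1 was at 6.81 to 18.5 FPKM in all stages, whereas GABBR2 was at 0.367, 0.630, 1.12 and 27.2 FPKM from ESC to NPC (24.2-fold). Of the 5 purine receptor genes of the list with a row, 4 were prevalent in NPC, with 28.3 FPKM for ADORA1 (at most 3.87 in other stages), 13.8 for ADORA2B (at most 0.742), 7.48 for P2RX7 (at most 0.0586) and 4.63 for P2RY1 (at most 0.940). P2RX4 was at 4.79, 4.29, 6.60 and 13.01 FPKM, 1.97-fold above its second stage, and was not prevalent. Among scaffolds, DLG4, which holds glutamate receptors at the synapse, was at 5.58, 21.9, 56.98 and 24.5 FPKM and prevalent in R-NSCP6 (2.32-fold). The AMPA receptor partners GRIP2 and CNIH3 differed in stage, with GRIP2 prevalent in R-NSCP1 at 5.85 FPKM and CNIH3 (LOC701416) in NPC at 5.24 FPKM.

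REST, the repressor that keeps many channel and receptor genes silent outside neurons, was at 18.6, 10.5, 2.77 and 6.87 FPKM from ESC to NPC, and its part in the levels above was not tested.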

How the data were processed

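For paired-end libraries mapped to the rhesus assembly MMUL_1.0 with TopHat (2.0.5 by the processing notes, where Bowtie 0.12.8.0 is listed too), the authors deposited FPKM of known genes, computed with Cufflinks 2.0.2. How libraries were scaled to each other is not stated, and the depth behind a value is unknown: in 13 to 41 rows with both values under 0.15 FPKM, at most 4 shared a ratio between 2 stages, so whole fragments were not recovered. The miRNA table holds no member and was not used.

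Members, gene lists and rules were chosen with earlier results of these data known. Named were all prevalent members and the 4 of highest FPKM per class. Values in 4 stages were planned for members of at least 10 FPKM or 4-fold, and those of the other members, and the LOC, partner and neighbour genes named, were chosen after their values were seen. Of the symbols, all 57 matched the gene table. All differences rest on fixed rules of size. Simulated data served only to check that the rule for prevalent genes was applied as written. They say nothing on how reliable the calls above are. Python 3.11.15, numpy 2.4.6, pandas 2.3.3 and matplotlib 3.10.9 were used. Alternatives were 3 scalings, a minimum FPKM of 1 or 10, a fold of 4, a pseudocount of 0.1, and other choices of rows or members. Sequence features of the members were planned and not computed, and no sequences are shown. Results of some genes are not reported here.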

Additional observations from a re-analysis of the deposited data

How the results depend on the processing

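With upper-quartile scaling, 6 members were at least 2-fold higher at passage 6 than at passage 1, and the median log2 ratio was -0.057 for that step and -0.11 from R-NSCP6 to NPC. With median-of-ratios scaling the latter was -0.13. With FPKM divided by the library sum, 5 members were prevalent in ESC and 11 in R-NSCP1, 5 were lower in R-NSCP1 than in ESC (all symbols, 4.25%), 4 were higher (all symbols, 5.46%) and 18 lower (all symbols, 33.4%) at passage 6 than at passage 1, and the medians of the 3 steps were 1.38, -0.31 and 0.18. These scalings moved the median of all symbols on the log2 scale by up to 0.16 with the upper quartile, 0.14 with the median of ratios and 0.89 with the sum. A fold of 4 left 5, 1, 1 and 5 prevalent members from ESC to NPC. By step, it left 15 higher and 7 lower in R-NSCP1 than in ESC. At passage 6 it left 2 higher and 1 lower than at passage 1. In NPC it left 7 higher and 12 lower than at passage 6. A minimum FPKM of 10 left 2, 1 and 2 prevalent members in the stages after ESC, with 4 higher and 7 lower at passage 1 than in ESC, 3 higher and 2 lower at passage 6 than at passage 1, and 3 higher and 2 lower in NPC than at passage 6. At that level 9 members were expressed in ESC, 7 in each R-NSC stage and 8 in NPC, and with a minimum of 1, 33 in ESC. From ESC to R-NSCP1 the median was 1.09 with a pseudocount of 0.1 and 0.22 for members of at least 10 FPKM, for which it was 0.35 in the next step. With the LOC rows, chosen after the data were seen, 17 were higher at passage 6 than at passage 1. By the row of lower mean, GLRX had a log2 ratio of ESC to NPC of -1.32. No share of all symbols is given for the counts by step at a fold of 4, for a minimum FPKM of 1 or 10, or with the LOC rows. Those counts are therefore not read as a result about the members. The fewer genes that reach a higher fold or minimum account for the lower counts by construction, and for the scalings the cause was not tested. No paired analysis was possible because each stage has 1 library.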
